A study of Caenorhabditis elegans with 4 samples.

Results

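The cytochrome P450 genes of the nematode Caenorhabditis elegans were taken as every gene whose symbol begins with cyp- and a digit and that has a probe set assigned to it alone. The rule found 73 genes read by 78 probe sets, of 17138 genes with such a probe set on the array. They fall into 15 numbered families and 25 lettered subfamilies, and 3 of them are annotated as pseudogenes. A further 2 probe sets match a pair of P450 genes each and were kept apart. The steroid hormone P450 gene daf-9 carries another name and is described with the partner genes.

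Transcript levels were read on 4 Affymetrix C. elegans Genome arrays of whole wild-type young adult hermaphrodites, grown for 3 days on bacteria. The groups were an untreated control, bisphenol A (BPA), di(2-ethylhexyl) phthalate (DEHP) and NP, read here as nonylphenol, with 1 array each. Exposed worms spent 24 h at 20 °C in a salt medium without food, with each chemical at 1/100 of its own 24 h LC50, the concentration that kills the median worm. The labels do not say whether the control was fed or held in the medium, so exposure, fasting and age cannot be told apart in a comparison with it. Comparisons among the exposed arrays do not use the control, but molar doses were not matched. BPA and NP are phenols, while DEHP is a diester of phthalic acid.

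Cytochrome P450 enzymes hold a heme group and insert an oxygen atom into a substrate, many of them taking electrons from a P450 reductase. Some of them start the breakdown of foreign compounds, and others make signalling lipids and steroids from the animal's own molecules. In C. elegans the intestine is a main site of the foreign-compound enzymes, and members of the cyp-35 family are known to be induced by many chemicals and to affect fat storage.

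Each group had 1 array, so no test was possible, no replicate error is known, and the number of arrays limits the precision. Every difference below describes these 4 arrays. Intensities are the deposited linear values, and an intensity is not comparable between probe sets of different genes. A change is a log2 ratio of 2 arrays relative to the median detected gene of that comparison, and detection in a comparison means that the brighter of its arrays reached the median of all probe sets, an intensity of 129 after scaling. The words higher and lower, used for a call, mean at least 2-fold on that relative scale. Probe sets of the _s_ or _x_ type, which can match several transcripts, are marked with a dagger (†). Close P450 paralogs may share signal even where the mark is absent.

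Fewer P450 genes than genes at large gave a detectable signal in these adults. At least 1 array reached the detection level for 31 of the 73 genes (42.5%), against 54% of all genes. Of the 31, 20 reached it on all 4 arrays and 11 on some of them. By array, 22 reached it in the control, 23 with BPA, 26 with DEHP and 27 with NP. The other 42 genes had deposited intensities between 1.25 and 135, and no change is given for them. They include most of the cyp-33, cyp-34, cyp-35 and cyp-14 families. All 3 cyp-35B genes, 4 of 5 cyp-14A genes, 8 of 11 cyp-33C genes and 7 of 9 cyp-34A genes were among them. So were cyp-35A1, cyp-35A4, cyp-35A5 and cyp-35D1, the rifampicin-inducible gene cyp-13A7, the eicosanoid-linked gene cyp-29A3 and the single cyp-23 gene.

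**Figure D1:**
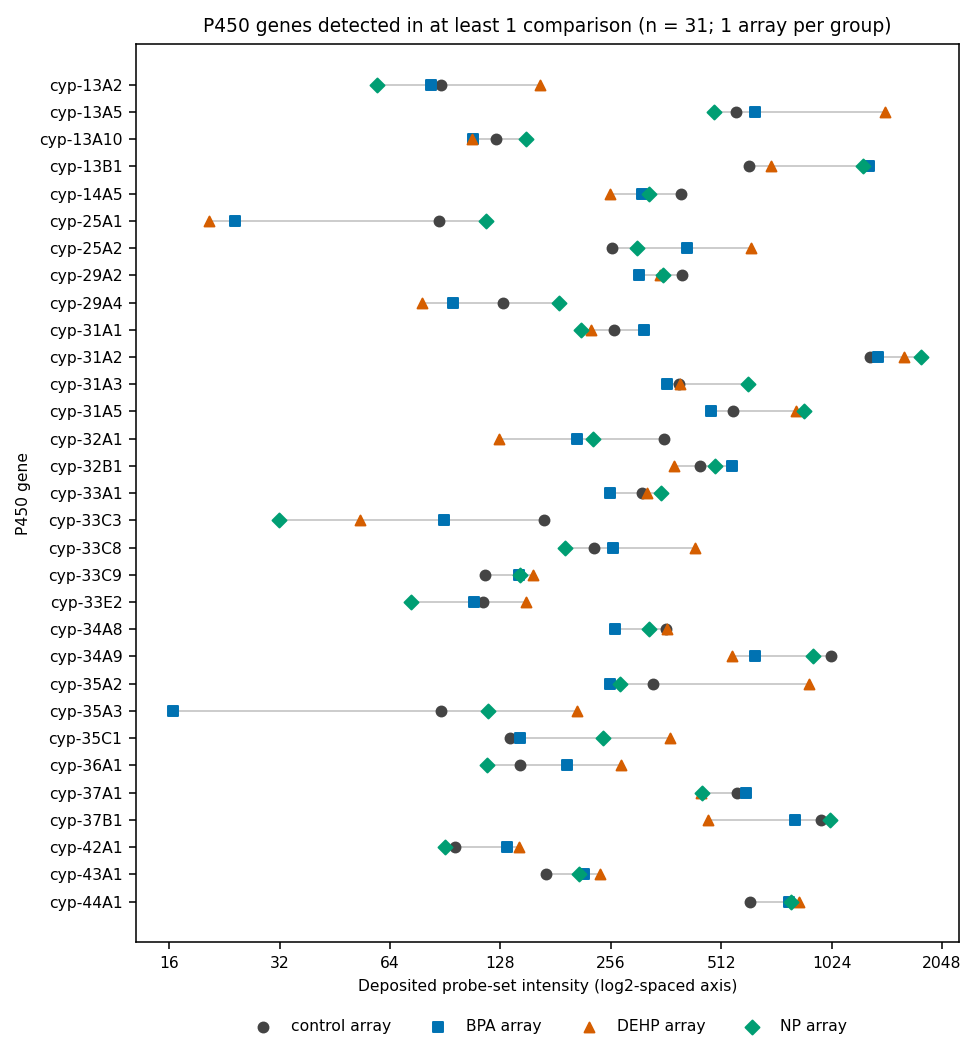
Deposited intensity (horizontal log2-spaced axis) of the 31 P450 genes detected in at least 1 comparison, with 1 point for each of the 4 arrays and a grey line over their range. The triangles of the DEHP array lie to the right for cyp-13A5, cyp-25A2, cyp-35A2, cyp-35A3 and cyp-35C1 and to the left for cyp-32A1 and cyp-37B1. The points of cyp-44A1 lie within 614 to 837.

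The P450 genes were spread more widely over the 4 arrays than genes at large. The median range from the lowest to the highest array, after each array was centred on its median detected gene, was 0.88 log2 for the 31 P450 genes and 0.60 for the 9251 genes detected on any array. A range of 2-fold or more was found for 48.4% of the P450 genes and for 20.7% of all. The DEHP array held the highest value for 14 of the 31 (45.2%), against 20.1% of all detected genes. A gene that reached the detection level on 1 array alone had its highest array set by that rule. Among the 31 these were cyp-13A2, cyp-33E2 and cyp-42A1 with DEHP, cyp-13A10, cyp-25A1 and cyp-29A4 with NP, and cyp-33C3 in the control. The shares and ranges here were not recomputed without such genes, and the P450 genes and genes at large were not matched for intensity. The lowest value lay on the DEHP array for 9 of the 31 (29%), near the 23.1% of all detected genes. For the control, BPA and NP arrays the counts of lowest values were 7, 7 and 8.

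The DEHP array held most of the 2-fold differences from the control. Of 28 detected P450 genes, 5 were higher and 3 were lower, or 28.6%, against 8.54% of all 8915 detected genes. By direction, 17.9% of the P450 genes were higher where 2.82% of all genes were, and 10.7% were lower where 5.72% of all genes were. Their median was 0.34, with the middle 50% of values from -0.22 to 0.90, while all detected genes had a middle range from -0.29 to 0.24 around 0. The BPA array differed less, with 1 of 24 detected P450 genes higher and none lower (4.17%, against 2.71% of all genes, of which 1.3% higher and 1.41% lower) and a median of 0.086. On the NP array 1 of 28 was higher and 1 lower (7.14%, against 10.3% of all genes, of which 1.92% higher and 8.42% lower), with a median of 0.15. The 3 comparisons share the control array. Among the 24 P450 genes detected in all 3 comparisons, none was 2-fold higher on every exposed array and none was 2-fold lower on every one. Of all 8598 genes so detected 17 and 53 were, shares too small to expect any among 24.

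A gene that is detected only on its bright array had to differ, and such genes are among these counts. A filter on the mean over the 4 arrays, added after seeing the data, leaves 23 P450 genes. On the DEHP array 4 of these were then higher and 2 lower, against 2.33% and 4.42% of all genes. Of 28 pairwise differences of 2-fold or more over the 6 comparisons, 15 had both arrays at or above the detection level and 13 had the dimmer array under it. The size of those 13 is uncertain.

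**Figure D2:**
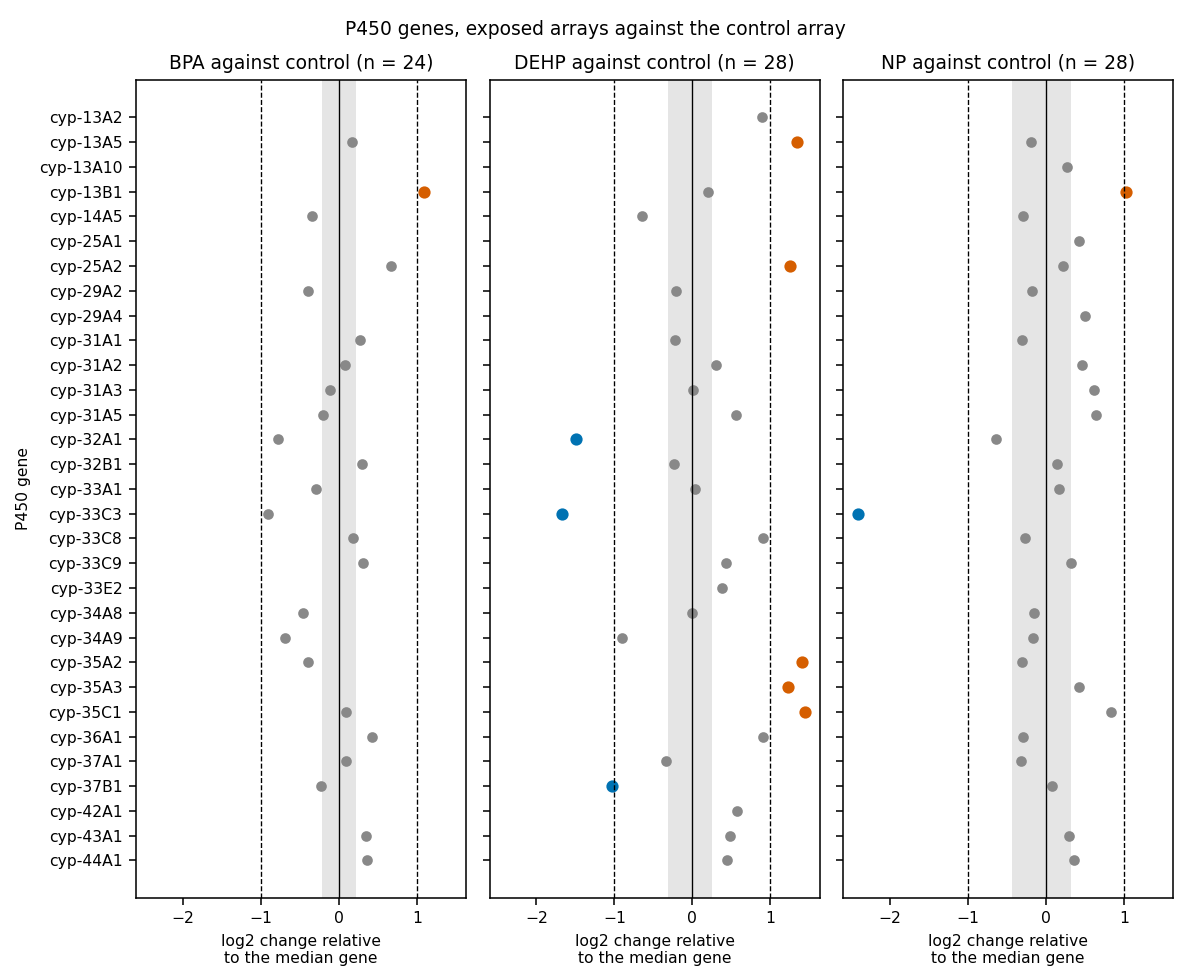
Log2 change relative to the median gene (horizontal axis) of each detected P450 gene on the BPA, DEHP and NP arrays against the control array. Dashed lines mark 2-fold, the grey band holds the middle 50% of all detected genes, and orange and blue points are genes past 2-fold. The DEHP panel holds 5 orange and 3 blue points, the BPA panel 1 orange point and the NP panel 1 of each.

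The cyp-35 family, known for induction by foreign compounds, had 3 of its 10 genes detected, and these 3 were higher on the DEHP array than in the control. Of the 3, cyp-35A3 and cyp-35C1 were under the detection level in the control. In that comparison they were counted only through the DEHP array, where they were high, and cyp-35A2 alone was detected on both arrays. The 7 undetected members had no common order of arrays, with cyp-35A5 at 52.3 in the control and 3.65 with DEHP, and cyp-35B1 highest, at 84.5, with NP. The transcript of cyp-35A2 had an intensity of 334 in the control, 254 with BPA, 887 with DEHP and 271 with NP. The DEHP array stands alone above the other arrays, which lie close together. Its change was 1.40 against the control, and on the other exposed arrays it was -0.39 for BPA and -0.31 for NP. Against the exposed arrays, all from unfed worms, DEHP was higher again, with -1.81 for BPA against DEHP and 1.72 for DEHP against NP.

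For cyp-35A3 the intensities were 88.0 in the control, 16.4 with BPA, 207 with DEHP and 118 with NP. The DEHP value was again the top one, and the BPA value lay under the floor of 28.3 below which intensities were not read. The change was 1.22 for DEHP and 0.42 for NP against a control under the detection level. BPA was at least 6.78-fold lower than DEHP and at least 3.90-fold lower than NP.

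The third detected member, cyp-35C1†, read 136 in the control, 145 with BPA, 370 with DEHP and 243 with NP. Both DEHP (1.44) and NP (0.84) lay above the control, with NP short of 2-fold, and BPA lay at 0.095. Its second probe set, of the unshared type, gave 84.2, 48.8, 121 and 88.1 in the same order. That second set put DEHP at 0.52 and NP at 0.062, and the 2-fold call of cyp-35C1 against the control rests on the shared-type probe set. BPA against DEHP was -1.37 on the probe set used. The second set is under the detection level on every array, so the sizes it gives are uncertain.

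The cyp-35A2 gene lies next to cyp-35A1 on chromosome V, and cyp-35A1 read 12.3, 26.6, 32.7 and 3.57 on the control, BPA, DEHP and NP arrays. All of these are under the detection level, so the neighbour gave no measurable counterpart. The run of cyp-35A5, cyp-35B1, cyp-35B2 and cyp-35B3, also adjacent on chromosome V, had no detected member.

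Of the 11 genes of the cyp-13 family 4 were detected, 3 of 9 in the cyp-13A subfamily and 1 of 2 in cyp-13B. The cyp-13A5 transcript read 562 in the control, 632 with BPA, 1432 with DEHP and 491 with NP. DEHP stood apart from the 3 other arrays, with changes of 0.17, 1.34 and -0.20 for BPA, DEHP and NP. The DEHP array exceeded the BPA array (-1.19 for BPA against DEHP) and the NP array (1.55).

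The gene cyp-13A2, which lies in the same run of 8 adjacent P450 genes on chromosome II with other members between, read 88.1, 82.6, 165 and 59.1 on the control, BPA, DEHP and NP arrays. Only the DEHP value reached the detection level, at 0.90 above the control, -1.01 for BPA against DEHP and 1.49 for DEHP against NP. Of the 7 genes of that run on the array the remaining 5 were under the detection level throughout. The gene cyp-13A10, on the same chromosome outside the run, read 124, 108, 107 and 150, with NP highest at a change of 0.27.

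The transcript of cyp-13B1†, the single detected member of its subfamily, had an intensity of 609 in the control, 1293 with BPA, 700 with DEHP and 1246 with NP. The arrays of both phenols lay above those of the control and DEHP, with changes of 1.09 for BPA, 0.19 for DEHP and 1.03 for NP. It was the only higher P450 gene on the BPA array and on the NP array. The BPA and NP arrays differed from each other by 0.033. Between exposed arrays BPA exceeded DEHP by 0.87 and DEHP lay at -0.82 against NP, both short of 2-fold. The second probe set†, at 488, 1001, 482 and 911, gave 1.04, -0.026 and 0.90 against the control, and 1.04 for BPA against DEHP. On both probe sets the phenol arrays lay together, while NP passed 2-fold on the brighter set alone and in 7 of 11 alternative settings. The paralog cyp-13B2 was under the detection level, with its highest value, 116, on the BPA array.

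**Figure D3:**
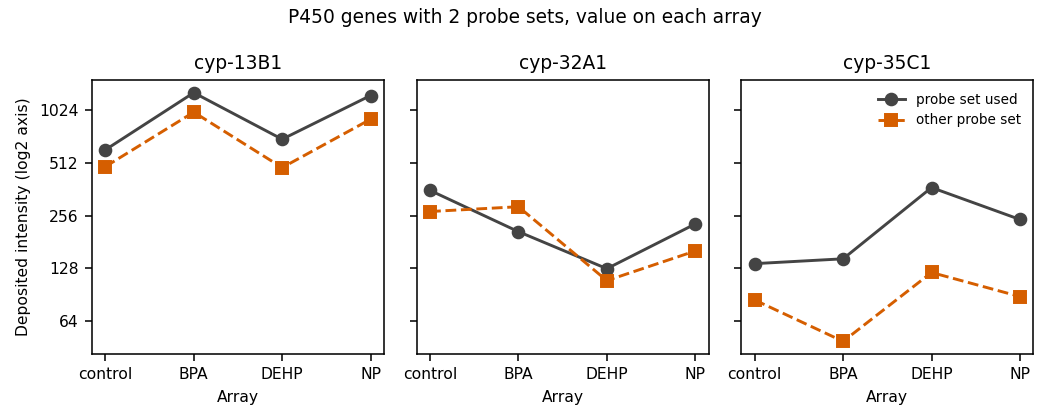
Deposited intensity (vertical log2 axis) on the 4 arrays for the 3 P450 genes with 2 probe sets that passed 2-fold, with the probe set used as a solid line and the other as a dashed line. Both lines of cyp-13B1 are high for BPA and NP, both lines of cyp-32A1 are lowest for DEHP, and both lines of cyp-35C1 are highest for DEHP.

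Adjacent cyp-25A genes on chromosome III stood on opposite sides when DEHP was set against NP. The cyp-25A2 transcript read 259 in the control, 412 with BPA, 619 with DEHP and 302 with NP. The DEHP value was highest (1.25), BPA came next (0.68) and NP lay near the control (0.22). DEHP against NP was 1.05, and between 0.81 and 0.97 with quantile or loess scaling, without centring or without the filter on dim genes. For cyp-25A1 the values were 86.9, 24.1, 20.5 and 117, so that NP alone reached the detection level. BPA was at least 3.87-fold and DEHP at least 4.17-fold lower than NP, with both dim values under the floor. The gene cyp-25A6 was under the detection level on every array, and the probe set shared by cyp-25A4 and cyp-25A5 read 174, 170, 163 and 120, within 2-fold of the control on each exposed array.

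The lower P450 genes on the DEHP array were cyp-33C3, cyp-32A1 and cyp-37B1. The cyp-33C3 transcript read 168 in the control, 90.0 with BPA, 53.1 with DEHP and 31.8 with NP. It was the only P450 gene detected on the control array and on no exposed array. Its changes were -0.90, -1.67 and -2.41, each against values under the detection level. The genes cyp-33C5, cyp-33C6 and cyp-33C7 follow it on chromosome V without another gene between, and none of them was detected.

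The transcript of cyp-32A1† read 357 in the control, 207 with BPA, 127 with DEHP and 229 with NP. Every exposed array lay under the control, at -0.78, -1.49 and -0.64. Its second probe set, of the unshared type, read 270, 288, 109 and 161, which gave 0.094, -1.32 and -0.75. The sets therefore disagree on BPA and place DEHP lowest alike. Its family member cyp-32B1† lay within 2-fold on all arrays (447, 547, 380 and 493).

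For cyp-37B1 the intensities were 956 in the control, 812 with BPA, 470 with DEHP and 1012 with NP. DEHP alone lay apart, at -1.03 against the control and -1.10 against NP. The first of these was -0.87 without centring on the median gene, while DEHP stayed 2-fold under NP in every setting tried. The related cyp-37A1† read 564, 600, 450 and 455, with no difference of 2-fold.

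In the comparisons among exposed arrays the P450 genes differed most between DEHP and NP. Of 30 detected genes, 7 were higher with DEHP and 3 with NP (33.3%, against 7.46% of all 8886 genes, of which 5.37% higher with DEHP and 2.09% with NP). The 7 were cyp-13A2, cyp-13A5, cyp-25A2, cyp-33C8, cyp-33E2, cyp-35A2 and cyp-36A1, and the 3 were cyp-25A1, cyp-29A4 and cyp-37B1. Of these, cyp-13A2 and cyp-33E2 reached the detection level with DEHP alone, and cyp-25A1 and cyp-29A4 with NP alone. Such genes were counted only through the array where they were high. With the filter on the mean over the 4 arrays, 5 of 23 were higher with DEHP and 1 with NP, against 4.56% and 1.52% of all genes. Without centring, 3 of 30 were higher with DEHP and 5 with NP, against 3.36% and 4.52%. Without the filter on dim genes the counts were 5 and 10 of 73, against 3.45% and 3.85%. Which array held more of the higher genes therefore depended on the setting. BPA was lower than DEHP for 5 of 27 genes and higher for none (18.5%, against 4.94% of all genes, of which 2.11% lower and 2.82% higher). Those 5 were cyp-13A2, cyp-13A5, cyp-35A2, cyp-35A3 and cyp-35C1. Of these, cyp-13A2 and cyp-35A3 were under the detection level with BPA and were counted only through DEHP. With the filter on the mean, 3 of 23 genes were lower with BPA, against 1.64% of all genes. BPA and NP differed by 2-fold for 2 of 27 genes (7.41%, against 8.93% of all genes, of which 6.61% higher and 2.33% lower with BPA), cyp-25A1 and cyp-35A3, both at the floor on the BPA array. Both genes of BPA against NP were counted only through NP. The filter on the mean left 0 of 23 lower with BPA there, against 1.78% of all genes. Each pair of these comparisons shares an array.

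Some P450 genes passed 2-fold only among exposed arrays. The cyp-33C8 transcript read 231 in the control, 260 with BPA, 433 with DEHP and 192 with NP, so the DEHP value was the highest, 0.90 above the control and 1.19 above NP. The transcript of cyp-36A1, which in C. elegans acts in the oxygen-sensing pathway of egl-9 and hif-1, read 145, 195, 273 and 118. DEHP was again the highest, at 0.91 against the control and 1.22 against NP. Against NP the DEHP change was 0.95 for cyp-33C8 and 0.99 for cyp-36A1 without centring or without the filter on dim genes. Values for cyp-33E2, a pharyngeal P450 linked to eicosanoids made from polyunsaturated fatty acids, were 115, 109, 150 and 72.9, with DEHP 1.05 above NP. That difference was 0.82 to 0.87 with quantile or loess scaling, without centring or without the filter on dim genes. The order was turned for cyp-29A4, which read 130, 95.3, 78.1 and 185, with NP highest and DEHP against NP at -1.24.

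**Figure D4:**
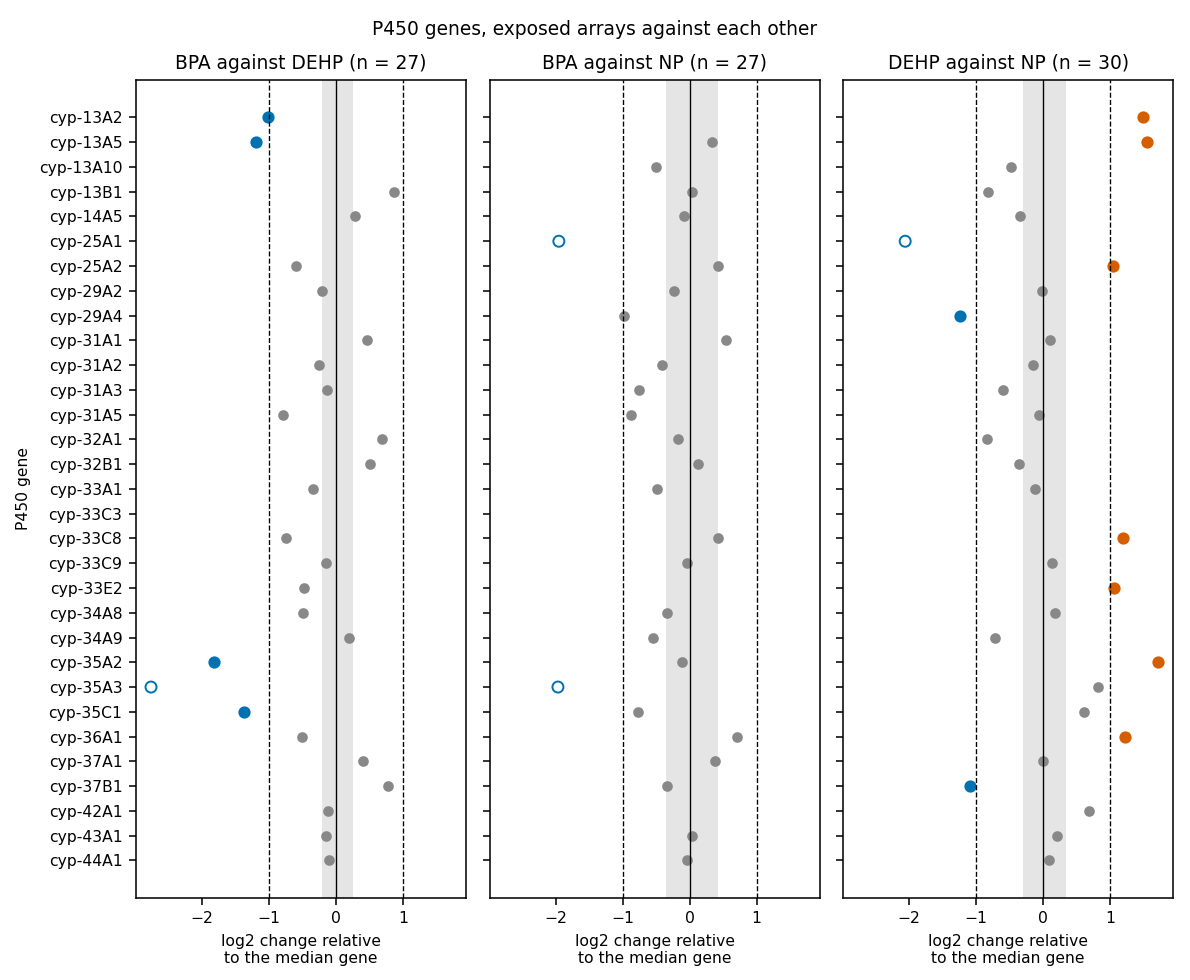
Log2 change relative to the median gene (horizontal axis) of each detected P450 gene between pairs of exposed arrays. Dashed lines mark 2-fold, the grey band holds the middle 50% of all detected genes, and open circles are lower bounds on the size of a difference, with the dimmer array at the floor. The DEHP against NP panel holds 7 orange and 3 blue points, and the BPA against DEHP panel 5 blue points.

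The cyp-31 family, whose genes cyp-31A2 and cyp-31A3 are needed for the lipid-rich eggshell and early embryonic polarity, was detected on every array and held no 2-fold difference in any of the 6 comparisons. The intensities of cyp-31A2† were 1300 in the control, 1372 with BPA, 1616 with DEHP and 1800 with NP. NP was highest (0.47) and DEHP next (0.31). For cyp-31A3 they were 393, 364, 396 and 606, with NP at 0.62. For cyp-31A5 they were 552, 480, 819 and 862, with DEHP at 0.56 and NP at 0.64. The pseudogene cyp-31A1†, whose probe set may read its paralogs, had 262, 316, 226 and 212, with NP lowest at -0.31.

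The remaining detected genes also stayed within 2-fold. The largest difference from the control among them was that of cyp-34A9, listed among genes downstream of the FOXO factor DAF-16, which read 1021, 632, 550 and 912 on the control, BPA, DEHP and NP arrays. BPA (-0.69) and DEHP (-0.90) lay under the control and NP near it (-0.17). Its neighbour in a run of 6 adjacent genes on chromosome V, cyp-34A8, read 362, 263, 364 and 326, with BPA lowest. The other 4 genes of that run were not detected. The cyp-14A5† transcript read 398, 312, 255 and 325, with the control highest and DEHP at -0.65. The mitochondrial-type P450 gene cyp-44A1 read 614, 785, 837 and 793, and cyp-43A1 read 170, 217, 239 and 209. In both, every exposed array lay above the control, by 0.29 to 0.48. The cyp-29A2 transcript read 401, 305, 349 and 354, with the control highest. For cyp-33A1 the values were 311, 255, 321 and 352, and for cyp-33C9 they were 116, 144, 157 and 145. The cyp-42A1 values were 96.5, 134, 144 and 90.2, with DEHP highest at 0.57.

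The 73 P450 genes are unevenly spread over the genome, with 42 on chromosome V and 12 on chromosome II. The annotation holds 11 runs of adjacent P450 genes, with 34 of the 73 genes in them. Directly adjacent genes that were both detected were cyp-25A1 and cyp-25A2, which stood on opposite sides of DEHP against NP, and cyp-34A8 and cyp-34A9, with DEHP changes of 0.0016 and -0.90. The run with cyp-13A2 and cyp-13A5 has 3 P450 genes between them, and both were highest with DEHP.

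Of 14 listed genes for electron supply, the steroid P450 daf-9 and heme handling, 11 were on the array and 8 were detected. None of the 8 was 2-fold from the control on the BPA array (median 0.41), where 2.71% of all genes were. With DEHP 1 was lower (median 0.11, against 5.72% of all genes) and with NP 1 was higher (median 0.19, against 1.92%). Both were ftn-1†, a ferritin gene that stores iron, which read 1422 in the control, 2391 with BPA, 681 with DEHP and 2886 with NP. The gene hrg-7, of the heme-responsive genes, read 1027, 1475, 2061 and 866, just short of 2-fold with DEHP. The P450 reductase gene emb-8†, which supplies electrons, read 1493, 1768, 1360 and 874, with NP lowest at -0.78. The cytochrome b5 genes cytb-5.1 (0.23, 0.090 and 0.26 for BPA, DEHP and NP) and cytb-5.2 (-0.28, -0.65 and 0.14) stayed within 2-fold, and daf-9 was under the detection level.

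Of 21 listed regulators of P450 or stress genes, 19 were on the array. None of 16 detected was 2-fold from the control with BPA (median -0.059), 1 of 17 was higher with DEHP (median -0.027, against 2.82% of all genes) and 4 of 17 were lower with NP (median -0.56, against 8.42%). The nuclear hormone receptor gene nhr-114 read 204, 198, 567 and 68.1 on the control, BPA, DEHP and NP arrays, at 1.46 with DEHP and -1.59 with NP. The other lower genes on the NP array were mdt-15 (-1.56), a Mediator subunit needed for fat metabolism and for responses to foreign compounds, nhr-48 (-1.18) and pqm-1 (-1.04). The receptor gene nhr-8, linked to drug resistance, had 419, 397, 614 and 285, with DEHP at 0.54. The gene of the aryl hydrocarbon receptor, ahr-1, was detected with DEHP (0.41) and NP (0.37).

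Marker genes and RNA measures moved with the arrays as well, and their part in the P450 values was not tested. All 8 intestine markers were detected on every array, with none at 0. Their summed intensity was 40754 in the control, 37630 with BPA, 30781 with DEHP and 26631 with NP. The gene asp-1, at 25112 in the control, held most of that sum. Medians of the intestine list were -0.26, -0.42 and -0.91 for BPA, DEHP and NP. Medians for BPA, DEHP and NP were -0.28, -0.79 and -0.96 over 4 body muscle markers and -0.17, -0.77 and -1.23 over 5 neuron markers. The epidermis and cuticle markers, 4 of 5 detected, went otherwise, with medians of 0.41, 0.45 and -0.052. On the NP array these genes diverged, with che-14† at 1.34 and rol-6 at -1.60. Within the intestine list ges-1† went against the DEHP median, at 0.53. Among the neuron markers snb-1 went against the NP median, at 0.26, and lay at -0.0046 with DEHP. What lay behind these medians cannot be told in whole worms and was not tested. Of 6 sperm markers 3 were detected, all msp genes† and all higher with DEHP (median 1.98). Sums over all 6 were 1098, 903, 4054 and 791 on the control, BPA, DEHP and NP arrays. Oocyte and yolk markers stayed within 2-fold on all arrays. The yolk markers, genes of the adult hermaphrodite intestine, had medians of 0.16, 0.063 and 0.36, and so did not follow the intestine list. Medians for the control, BPA, DEHP and NP arrays before scaling were 141, 140, 127 and 109. The ratio of 3-prime to 5-prime signal was highest on the NP array for all 4 worm control transcripts, for actin 1.88 against 1.19 in the control. Detected P450 genes had a median gene span of 2362 bases, against 2593 for all detected genes. Taking out the trend of the change with gene span left all 28 pairwise differences past 2-fold.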

How the data were processed

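Each of the 4 arrays came as a column of 22625 linear intensity values, 1 per probe set, as deposited. The authors had scaled them to a common mean of about 500 per array once the lowest and highest 2% were left out, as the values show. The software and genome build were not stated in any label or file used here. The table holds no detection calls. A label on labelling speaks of fibroblasts, against every other field, and worms were assumed.

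The 77 control probe sets were set aside. After the log2 step a constant was added to every array so that the medians matched, -0.13 in the control, -0.12 in BPA, 0.017 in DEHP and 0.24 in NP. The floor was the 25th percentile over all arrays (28.3), and lower values were raised to it. Probe sets of 1 gene (20766) were named through the platform table and the WBcel235 gene table, and the probe set with the highest mean stood for its gene. Changes were centred on the median detected gene, which had lain 0.0099, 0.16 and 0.38 above the control for BPA, DEHP and NP. The printed intensities are as deposited, before this scaling.

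Every P450 gene detected in at least 1 comparison is named with its 4 values, and those past 2-fold are described in full. Of the partner and regulator lists, genes past 2-fold were named, and others for their role or near the threshold, after their values were seen. The members, lists and rules were chosen with earlier results of these data known. Changes planted in simulated arrays served to test the calculation. Alternatives covered scaling, floor, filter, centring and choice of probe set. Promoter and protein sequences were not used here. Python 3.11.15, pandas 2.3.3 and statsmodels 0.14.6 were used.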

Additional observations from a re-analysis of the deposited data

How the results depend on the processing

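All 28 pairwise 2-fold differences of P450 genes kept their sign under the 12 alternatives, and 9 stayed past 2-fold and detected in every alternative that could be run for them. These were the 3 differences of cyp-13A5, the 3 of cyp-35A2, cyp-13B1 with BPA and cyp-25A2 with DEHP against the control, and cyp-37B1 between DEHP and NP. Of 216 counts and medians of the P450 genes recomputed, 164 stayed within 1.5 times or 0.1 log2 of the reported value. The causes of the other shifts were not tested beyond what each setting changes. Without the filter on dim genes, which brings in genes near the floor, the counts higher and lower among 73 genes were 2 and 8 with BPA, 11 (higher) with DEHP and 5 and 4 with NP against the control, where 2.29% and 2.01%, 3.97%, and 5.51% and 3.59% of all genes were. They were 1 and 10 for BPA against DEHP (all genes 3.13% and 3.00%) and 2 and 11 for BPA against NP (3.78% and 6.02%), and DEHP against NP had 10 lower (3.85%). The medians there were 0 for DEHP and, between exposed arrays, -0.31 for BPA against NP and -0.063 for DEHP against NP. With the filter at the 75th percentile, which leaves fewer genes, DEHP had 3 higher and 1 lower of 9 (all genes 2.32% and 3.26%), NP 0 and 0 of 7 (0.847% and 5.79%) with a median of 0.33, and BPA against DEHP 2 lower of 8 (1.80%) with a median of -0.38. BPA against NP then had 0 lower of 7 (1.28%) with a median of -0.27, and DEHP against NP 3 higher and 1 lower of 10 (4.20% and 0.943%). The filter on the mean over the 4 arrays, chosen after seeing the data like the gene span correction, gave a DEHP median of 0.19. Of 23 genes each, NP then had 0 lower (all genes 7.30%) and BPA against DEHP 3 lower (1.64%). BPA against NP had 0 lower (1.78%) and DEHP against NP 1 lower (1.52%). Without centring on the median gene, DEHP had 8 higher (median 0.50, all genes 4.39%) and NP 4 higher (0.53, all genes 8.55%), BPA against NP had 6 lower (-0.51, all genes 8.81%), DEHP against NP had 3 higher and 5 lower (-0.19, all genes 3.36% and 4.52%), and the BPA against DEHP median was -0.33. Leaving out shared-type probe sets took away the higher gene with BPA (0 of 17, all genes 1.53%, median -0.094) and with NP (0 of 21, 2.17%). It gave medians of 0.45 for DEHP, -0.42 for BPA against DEHP and 0.14 for DEHP against NP. BPA against DEHP then had 1 higher of 20 (3.16%). Averaging probe sets gave 0 of 28 higher with NP (1.95%) and 1 of 26 higher for BPA against DEHP (2.69%). Quantile normalization gave medians of 0.26 for NP and -0.30 for BPA against NP, and loess gave -0.29 for the latter. Values as deposited gave 0 of 26 lower for BPA against NP (1.98%). No paired analysis was possible because each group has 1 array. The lack of replicates and low signal over background both limit these values.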
